A study of Mus musculus with 20 samples.

Results

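Cytosolic sulfotransferases transfer a sulfonate group from the cofactor PAPS (3'-phosphoadenosine 5'-phosphosulfate) to hormones, bile acids, neurotransmitters and drugs, which makes most of these compounds more water soluble and easier to excrete. The liver holds much of the body's sulfotransferase activity, and in the mouse several of these enzymes are known to differ between the sexes. Here 9 genes of the family were described in mouse liver, namely Sult1e1, Sult1a1, Sult1b1, Sult1c2, Sult1d1, Sult2a1, Sult2a8, Sult3a1 and Sult5a1. They were taken by gene symbol from the 2 deposited RNA-seq tables, which list 56884 genes for males and 18149 for females, and all 9 were present in both. The family holds 12 other genes in the male table, which were examined beside the 9. The 9 were chosen by their family and by the fold changes of the authors' comparison of Midn-T with WT livers, which are not used or repeated here, so nothing below tests that choice.

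The RNA-seq samples were livers of 12 mice aged 11 to 14 weeks, 3 WT and 3 Midn-T of each sex. The labels give the WT animals the genotype Midn XTR, a gene-trap allele of the proteasome adaptor gene Midn in its expressed orientation, and the Midn-T animals the genotype Midn TR, in which Albumin-Cre had inverted the cassette in hepatocytes so that transcripts end after exon 2 and continue into GFP. Albumin-Cre acts mainly in hepatocytes, so other liver cells largely keep Midn. Each table gives, for a gene, 1 mean normalised count over all 6 mice of a sex, so WT and Midn-T livers enter each value in equal number and cannot be told apart in it. The tables' other columns are the authors' own comparison of Midn-T with WT and were not used here, so the effect of Midn loss on these genes is not analysed here. What the means do show is the relative level of each sulfotransferase transcript in the pooled male and the pooled female livers. A ratio between the sexes may hold a difference between genotypes within 1 sex, and the 2 cannot be told apart here.

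No mean carries a spread between mice, and no test between the sexes was possible. Because means of genes with very few reads are whole multiples of what 1 read is worth in each library, the relative depth of the 6 male libraries could still be read from the table. Their relative size factors ran from 0.598 to 1.27, and the next lowest was 0.938, so 1 male library stood below the others. Its group could not be read from the table. The 2 tables were normalised separately, and each was therefore rescaled to a sum of 1000000 over the 18149 genes listed in both, which gave the scaled levels used below. Most genes long known to differ by sex lay on the labelled side: all 11 of the female-high genes listed in both tables were at least 2-fold higher in females, all 10 of the male-high genes were at least 2-fold higher in males, and the Y-linked Ddx3y, Kdm5d, Uty and Eif2s3y, with male means of 964 to 3147, were not listed for females, where the lowest listed mean is 6.61. The exception was A1bg, the last of the 12 female-high genes, which had a male mean of 0.773 and was not listed for females. Moxd1, a male-high gene with a male mean of 161, was not listed for females either. Alb, the hepatocyte gene for serum albumin, had the largest mean of all genes in both sexes.

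The members lie on 5 chromosomes of GRCm39, and several sit in runs of duplicated genes. Sult1b1 (chromosome 5, 87661191 to 87686072), Sult1d1 (87702504 to 87716933) and Sult1e1 (87723828 to 87739461) stand side by side on the minus strand within 78.3 kb that hold no other protein-coding gene. Sult2a1 (chromosome 7, 13530171 to 13571337) and Sult2a8 (14144611 to 14180694) belong to a run of 8 Sult2a genes over 870 kb. Sult3a1 (chromosome 10, 33726976 to 33756605) has its copy Sult3a2 within the same 114 kb. Sult1c2 (chromosome 17, 54136151 to 54153418) has Sult1c1 within the same 162 kb. Sult1a1 (chromosome 7, 126271299 to 126275615) and Sult5a1 (chromosome 8, 123866931 to 123885779) lie elsewhere. Sult1a1 overlaps the protein-coding gene Sgf29 on the opposite strand, and the counting was strand specific. The span of Sult2a1 overlaps the pseudogene Kat6b-ps2 on the same strand, where strand does not separate reads. Whether their exons overlap was not examined.

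Among the 9 members the coding sequences were 53.2% to 69.4% identical over aligned bases, with a median of 59.4% over 36 pairs. Sult1e1, the estrogen sulfotransferase, was closest to its neighbour Sult1d1 among the 5 Sult1 members, at 64.6%. Sult2a1 and Sult2a8 had the highest identity of the 36, 69.4%. Outside the 9, Sult2a1 was far closer to other genes, since the 15 pairs among Sult2a1 to Sult2a6 were 87.6% to 97.9% identical, and Sult3a1 was 90.9% identical to Sult3a2.

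**Figure D1:**
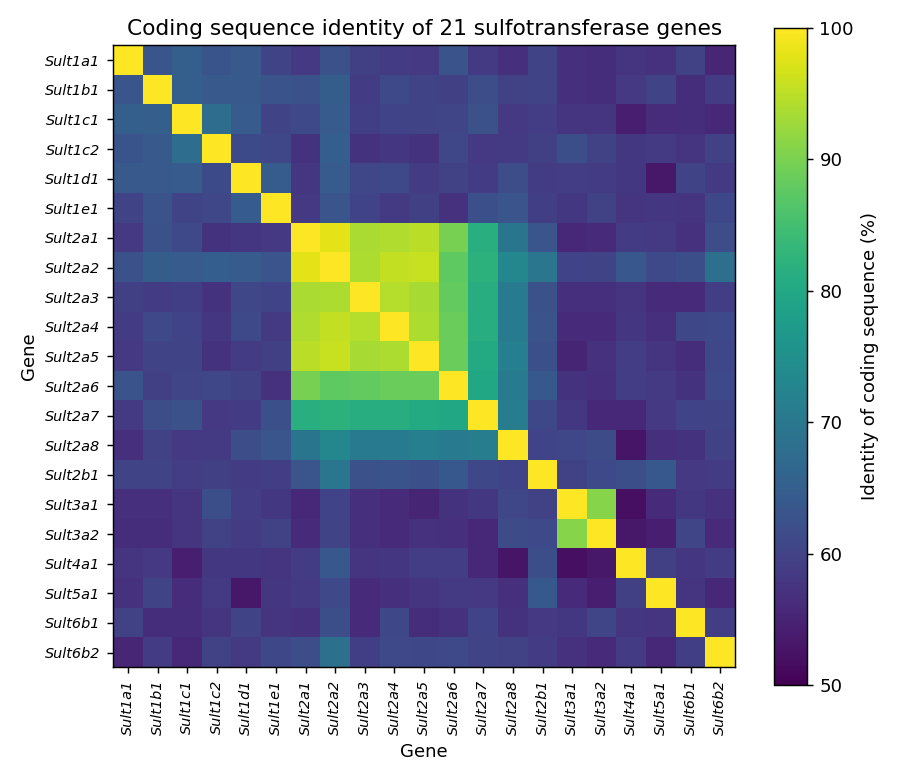
Each square gives the identity of the coding sequences of 2 genes, in percent of aligned bases without gaps, from 50 (dark) to 100 (yellow), for all 21 cytosolic sulfotransferase genes. The bright block is Sult2a1 to Sult2a6, at 87.6% to 97.9%, and the small bright square is Sult3a1 with Sult3a2, at 90.9%.

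The start of the coding sequence is shown because it bears on how far reads of Sult2a1 can be told from those of its copies. The first 90 coding bases are given below from GRCm39, 5' to 3' on the coding strand, in lower case with bases that differ from Sult2a1 in capitals. They lie on chromosome 7 at 13571192 to 13571281 for Sult2a1 (minus strand), 13467484 to 13467573 for Sult2a2 (plus strand), 13357970 to 13358059 for Sult2a5 (plus strand) and 14161755 to 14161844 for Sult2a8 (minus strand).
Sult2a1: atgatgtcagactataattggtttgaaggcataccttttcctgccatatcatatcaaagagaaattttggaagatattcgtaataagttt
Sult2a2: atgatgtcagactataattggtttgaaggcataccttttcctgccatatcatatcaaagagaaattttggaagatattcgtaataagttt
Sult2a5: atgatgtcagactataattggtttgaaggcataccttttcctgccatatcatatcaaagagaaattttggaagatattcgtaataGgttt
Sult2a8: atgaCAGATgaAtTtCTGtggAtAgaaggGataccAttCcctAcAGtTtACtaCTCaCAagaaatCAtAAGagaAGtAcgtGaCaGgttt
Sult2a2 differed from Sult2a1 at 0 of these bases, Sult2a5 at 1 and Sult2a8 at 37. The copies are not alike everywhere. Over their 855 coding bases Sult2a1 and Sult2a5 differed at 44, and the 90 bases within 1 exon that differed most, coding bases 347 to 436, held 9 of them. They lie at 13566538 to 13566627 (minus strand) in Sult2a1 and at 13362641 to 13362730 (plus strand) in Sult2a5.
Sult2a1: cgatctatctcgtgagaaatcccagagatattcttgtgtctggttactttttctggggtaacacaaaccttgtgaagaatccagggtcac
Sult2a5: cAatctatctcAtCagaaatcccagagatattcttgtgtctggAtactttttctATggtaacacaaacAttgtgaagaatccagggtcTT

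Only uniquely mapped reads were counted, so a stretch that a gene shares with a copy adds little or nothing to its count. Of the 31-base words in the exons of each member, 83.8% to 100% occurred once on the chromosomes for 8 of the 9 genes, and all words of Sult1e1 and Sult1d1 did. For Sult2a1 it was 43.9%, with 41.1% of its words also in Sult2a2. With words of 75 bases the share was 73.6% for Sult2a1 and at least 89.7% for the other 8. The deposited mean of Sult2a1 is therefore uncertain, and its level relative to the other members may be understated. The paired-end reads were longer than 75 bases, so the share of Sult2a1 that they can place may be higher than with either word length.

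**Figure D2:**
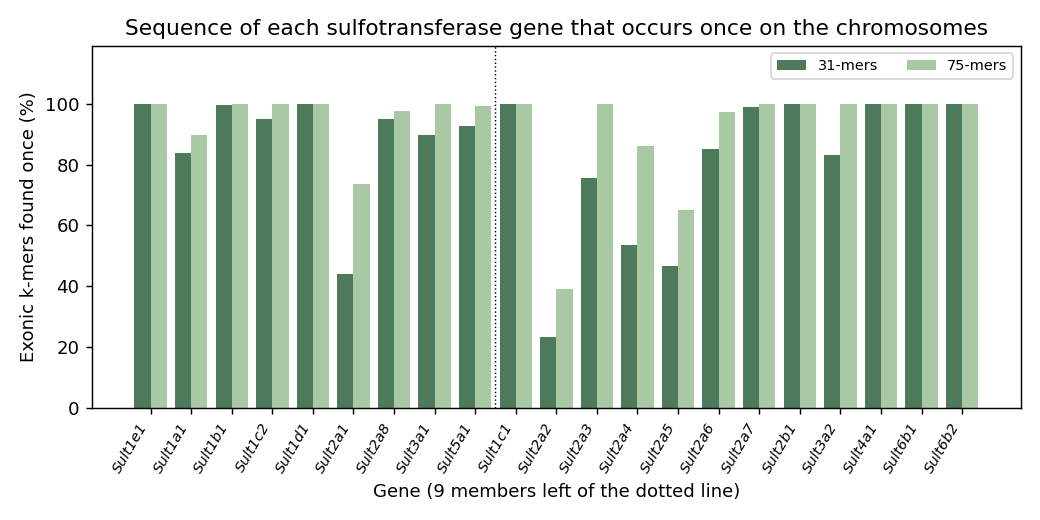
Bars give, for each gene, the percentage of its exonic words of 31 (dark) or 75 bases (light) that occur once on the chromosomes of GRCm39, with the 9 members left of the dotted line. Sult2a1 is the lowest of the members, at 43.9% and 73.6%, and Sult2a2 the lowest of the family, at 23.3% and 39.0%.

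Sult2a8, a sulfotransferase of the bile acid and steroid group, was the most abundant member in both sexes. Its mean normalised count was 28755 in males and 22395 in females, which placed it 122nd of all genes in the male table and 156th in the female table. It supplied 72.8% of the summed male level of the 9 genes and 49.2% of the female sum, without correction for length. Per kb of exon it held 200.0 of a sum of 322 in males and 153 of 453 in females, a smaller share in each sex. With the longest annotated transcript as length it held 419 of 586 in males and 321 of 702 in females. The size of the change in share thus depends on the length used. Its scaled level was 951 in males and 728 in females, or 1.31-fold higher in males, and it was the only member of the 9 with the higher value in males.

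Sult1a1, the phenol sulfotransferase, had a mean of 6005 in males and 11198 in females, a female level 1.83-fold that of males. Sult1d1, whose product sulfonates catecholamines and other small phenols, had 3051 and 4656, a 1.5-fold difference in the same direction. These 2 genes and Sult2a8 together were the 3 highest members in males. The scaled level per kb of exon allows genes of different length to be set side by side, and in males it was 200.0 for Sult2a8, 66.2 for Sult1a1 and 40.2 for Sult1d1. In females the same 3 led, at 153, 121 and 60.4. These levels depend on the length used, and with the longest annotated transcript in place of all exons they were 419, 108 and 40.9 in males and 321, 197 and 61.4 in females, in the same order.

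Sult1b1, which acts on thyroid hormones and phenols, had a mean of 731 in males and 853 in females, a ratio of 1.15. Sult5a1, whose substrates are less well defined, had 745 and 967, a ratio of 1.28. Sult1c2 was lower, with 188 in males and 332 in females, and a female level 1.73-fold that of males. The scaled levels per kb of Sult1b1, Sult5a1 and Sult1c2 were 8.33, 4.02 and 2.58 in males and 9.56, 5.14 and 4.48 in females, well under the leading 3. With the longest transcript as length Sult5a1 was at 6.17 and 7.88.

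Sult1e1, which inactivates estrogens by sulfonation, was the lowest of the 9 in females and the lowest of the 7 members that had more than a few reads in males. Its mean normalised count was 25.4 in males and 43.6 in females, which placed it 14128th and 13280th in the tables. Its scaled level was 0.840 in males and 1.42 in females, 1.69-fold higher in females. It made up 0.0643% of the summed level of the 9 genes in males and 0.0960% in females, without correction for length. Each mean covers 3 WT and 3 Midn-T livers, and how it divides between them was not analysed here.

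Sult2a1 and Sult3a1 stood apart from the other 7. Sult2a1, a hydroxysteroid and bile acid sulfotransferase, had a mean of 1954 in females and 1.09 in males. The male value was made of 6 reads in all, found in 4 of the 6 libraries. Sult3a1, an amine sulfotransferase, had 3078 in females and 0.576 in males, where 4 reads were found in 4 of the 6 libraries. The female level was 1757-fold the male level for Sult2a1 (95% interval from the counting of the male reads 807 to 4787) and 5258-fold for Sult3a1 (2054 to 19298), and these exact Poisson intervals cover counting error in males only, not the spread between mice. Among 17194 genes, with those at 0 in males ranked first, they came 23rd and 19th by this ratio, next to Cyp2b9, at 1831-fold, and Xist, at 5078-fold. Both members met the minimum for this ranking, a mean of at least 10 in either sex, through females alone, so the ranks only describe. By scaled level per kb, Sult2a1 at 56.9 and Sult3a1 at 40.6 were the fourth and the fifth of the 9 in females, close to Sult1d1, and the eighth and the ninth in males, at 0.0324 and 0.00771. In bulk tissue, fewer cells of a type and less RNA per cell cannot be told apart.

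**Figure D3:**
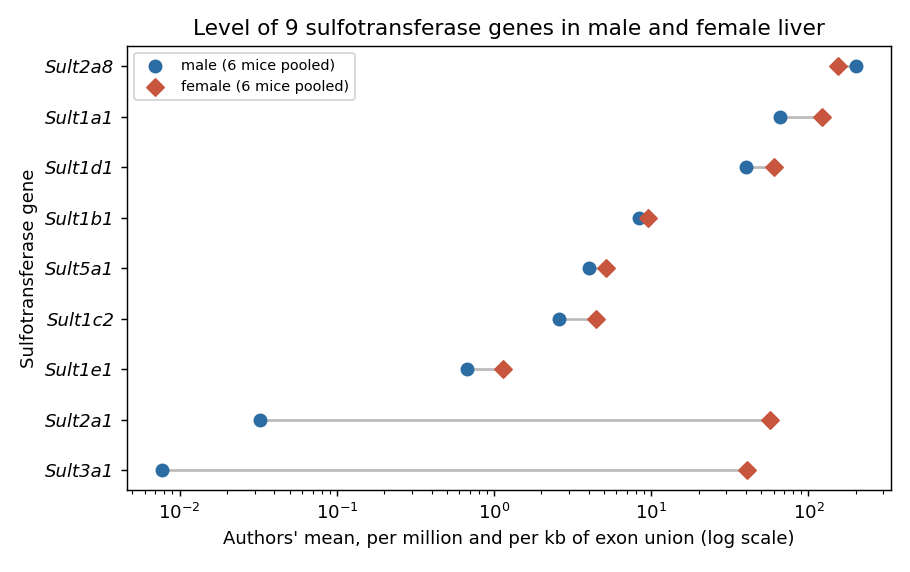
The authors' mean for each of the 9 genes, as scaled level per kb of exon (log axis), in males (blue circles) and females (red diamonds), with each point pooling 6 mice and no error available. Sult3a1 and Sult2a1 move from the bottom of the male order, at 0.00771 and 0.0324, to 40.6 and 56.9 in females, while the other 7 keep their order.

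Of the 9 members, 2 were at least 2-fold higher in females and 0 at least 2-fold higher in males, against 3.59% and 1.53% of all 17194 genes with a mean of at least 10 in either sex. Both of these members, Sult2a1 and Sult3a1, passed that minimum through their female level alone, so the count is a description and is not read against the background. The median log2 ratio of female over male was 0.76 over the members and 0.04 over all genes, and the members ran from -0.38 (Sult2a8) to 12.36 (Sult3a1). The member median includes Sult2a1 and Sult3a1 and is likewise only a description. The values of 4 further members, Sult1d1, Sult1e1, Sult1c2 and Sult1a1, lay between 1.5-fold and 2-fold higher in females. Summed over all 21 genes of the family the scaled level was 1307 in males and 1576 in females, a ratio of 1.21, with the 7 genes not listed for females taken as 0 there. The totals thus lay nearer to each other than the levels of Sult2a1 or Sult3a1 did. These totals are not corrected for length. Per kb of exon the 9 members summed to 322 in males and 453 in females. That is a wider relative gap than the 1306 and 1478 of the same 9 without the correction. The 5 Sult1 members together came to a scaled level of 331 in males and 555 in females, a ratio of 1.68.

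**Figure D4:**
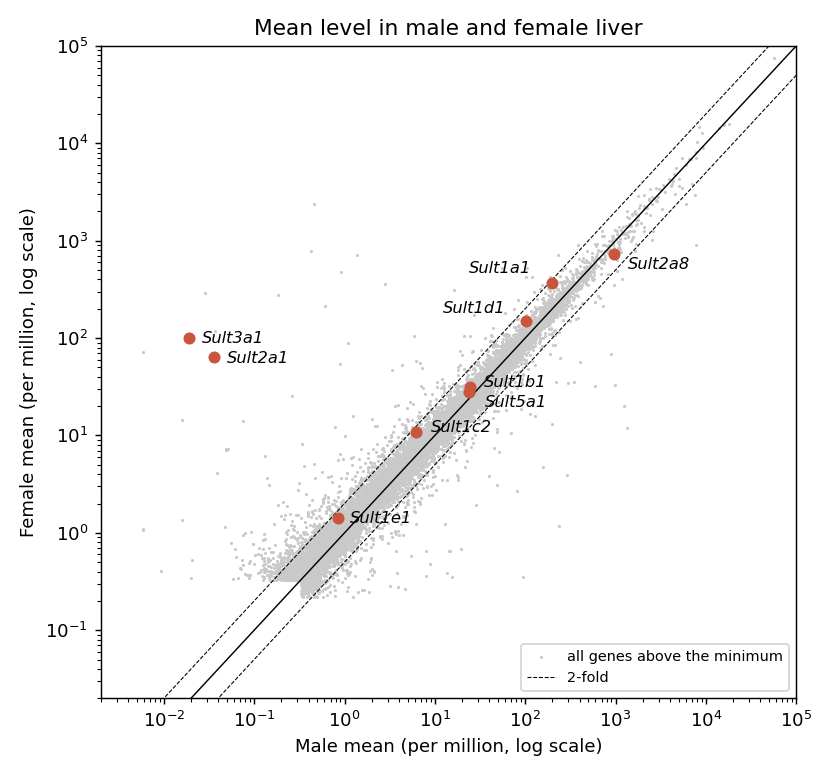
Scaled level of each gene in males (x axis) and females (y axis), both on log axes, with the members in red, the genes with a mean of at least 10 in either sex and above 0 in males in grey, the line of equal levels solid and 2-fold lines dashed. Sult2a1 and Sult3a1 lie far above the upper dashed line, and the other 7 members lie between the dashed lines, with Sult2a8 alone under the solid line.

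Of the 12 other genes of the family, 5 were listed for females. Sult2a2, the closest copy of Sult2a1, had a mean of 2235 in females and 0.178 in males, where 1 read was found, a female level 12373-fold the male one with a counting interval of 2221 to 488717. Sult2a3, Sult2a5 and Sult3a2 had female means of 93.9, 72.4 and 120, and each was listed at 0 in all 6 males. Sult2a7 was detected in both sexes, at 37.4 in males and 486 in females, 12.8-fold higher in females. Of these 5 genes, all but Sult2a7 entered the comparison through their female level alone, so their count supports nothing about the family. Sult1c1, Sult2a4, Sult2a6 and Sult6b2 were at 0 in males and not listed for females, and Sult2b1, Sult4a1 and Sult6b1 had 7, 8 and 1 reads in males and were not listed for females either.

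Since reads of the Sult2a copies can be divided among them or lost, the copies were also summed. Sult2a1 to Sult2a6 together came to a scaled level of 0.0420 in males and 142 in females. With all 8 Sult2a genes the sum was 952 in males and 885 in females, of which Sult2a8 made up 99.9% in males and 82.2% in females. The Sult2a reads counted in male livers were thus almost all of 1 gene. In females Sult2a2 reached a scaled level of 72.7, Sult2a1 63.5, Sult2a7 15.8, Sult2a3 3.05 and Sult2a5 2.35 beside Sult2a8. These sums and shares are not corrected for length. The exons of Sult2a8 cover 4.75 kb, against 1.12 kb for Sult2a1 and 0.854 kb for Sult2a2. Per kb of exon Sult2a8 was at 200.0 in males and 153 in females. Sult2a2 was then at 85.1, Sult2a1 at 56.9 and Sult2a7 at 12.4 in females. By that measure Sult2a8 made up less of the female sum, and the sum over the Sult2a genes was higher in females. Reads lost to shared sequence cannot be counted from the table, and their part in the female sum was not tested.

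Sulfonation depends on the supply of PAPS, which is made from sulfate by PAPS synthases. Of 12 genes for sulfate transport, activation and cofactor disposal, 11 were listed in both tables, and 0 were 2-fold apart in either direction. Over all 17194 genes the shares were 3.59% higher in females and 1.53% higher in males, so a count in a list this short says little. Papss2, the main hepatic PAPS synthase gene, was the most abundant, with a mean of 8431 in males and 15945 in females, 1.86-fold higher in females. Slc26a1, a sulfate and oxalate carrier of the hepatocyte, had 6273 and 6592, a ratio of 1.03. Suox, the sulfite oxidase that makes sulfate, had 2355 and 3206, a ratio of 1.34. The median log2 ratio of the 11 genes was 0.02.

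Sulfatases remove sulfate groups, and whether those below act on the products of the members was not examined. Of 7 genes for sulfatases and their activating enzymes, 6 were listed. Of these, 1 was past 2-fold higher in males and 0 higher in females, against 1.53% and 3.59% of all genes. Arsa, the lysosomal arylsulfatase A, had a mean of 1551 in males and 685 in females, 2.30-fold higher in males. Arsb, at 1195 and 1130, and Sumf1, at 807 and 740, were within 1.11-fold. The steroid sulfatase gene Sts was not analysed here.

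Receptors and factors known to act on sulfotransferase genes or on sex differences of the liver were also examined. Cux2, a repressor known to be specific to female liver, had a mean of 27.3 in males and 1658 in females, 59.8-fold higher in females. Bcl6, a repressor known to be higher in male liver, had 2351 in males and 1079 in females, 2.22-fold higher in males. Hnf4a, at 23196 and 19883, and Ghr, at 23123 and 21481, were within 1.19-fold, and Nr1i3, the receptor CAR that induces several sulfotransferases, was 1.56-fold higher in females, at 9453 and 15023. Esr1, the estrogen receptor, was 1.92-fold higher in females.

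Among 6 genes of estrogen handling, Esr1 is also in the list of regulators and Sts in that of sulfatases. Of the 6, 5 were listed and 0 were past 2-fold, against 3.59% of all genes higher in females and 1.53% higher in males. Cyp1a2, which hydroxylates estrogens, had a mean of 22534 in males and 19817 in females, 1.16-fold higher in males. Ugt1a1, which glucuronidates estrogens, was 1.44-fold higher in females, at 6769 and 9920. Sult1e1, at 25.4 and 43.6, was far below all of these in both sexes.

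Markers of other liver cells were compared as sums and singly. The summed level of 5 Kupffer cell genes was 236 on the scale of 1000000 in males and 242 in females, that of 5 endothelial genes 358 and 404, that of 5 stellate cell genes 300.2 and 386, that of 5 cholangiocyte genes 35.1 and 38.6 and that of 5 lymphoid genes 39.0 and 40.1. The ratios of female over male ran from 1.02 to 1.29, and all 25 of these genes were listed in both tables. The sums are carried by the abundant genes, and some single markers lay further apart. The low lymphoid markers Cd3e, Cd79a, Ms4a1 and Jchain were within 1.29-fold. Among the cholangiocyte genes Krt19 was 1.90-fold, Krt7 1.53-fold, Epcam 1.41-fold and Spp1 1.14-fold higher in females. Sox9 went the other way, 1.19-fold higher in males, and the median log2 ratio of the 5 was 0.50. Among the Kupffer cell genes Marco was 1.55-fold higher in males and Vsig4 1.27-fold higher in females. All 5 stellate cell genes were higher in females, Lrat 1.40-fold, Dcn 1.31-fold, Des 1.29-fold, Reln 1.25-fold and Col1a1 1.23-fold. Of the endothelial genes Lyve1 was 1.37-fold higher in males. Clec4g was 1.19-fold, Stab2 1.15-fold, Pecam1 1.13-fold and Kdr 1.11-fold higher in females. The value of Krt19 thus lay above those of Sult1e1 and Sult1a1. The 6 hepatocyte genes did not move together. Alb was 1.33-fold higher in females. Tat was 1.61-fold, Apoa1 1.38-fold, Serpina1a 1.14-fold, Ttr 1.09-fold and Cyp2e1 1.02-fold higher in males. Their summed level was 74469 in males and 90507 in females, of which Alb alone was 57064 and 75844. The part of cell composition in the ratios of the members was not tested.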

How the data were processed

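RNA-seq was measured in 12 livers and ATAC-seq in 8. Paired-end reads of rRNA-depleted, dUTP-stranded libraries were placed on GRCm39 by STAR (version 2.7 in the submitters' processing notes), and those mapping to 1 place were counted per gene by HTSeq on Ensembl release 110. The authors deposited 1 DESeq2 table per sex, whose signal column is the mean over 6 mice of counts divided by size factors. The other columns hold the authors' comparison of Midn-T with WT (fold change, its error, statistic and p-values), and the peak tables hold positions and directions of differential peaks. None of these was used, and no test was made.

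Means were divided by their sum over the 18149 genes listed in both tables and multiplied by 1000000. Ratios were described for 17194 genes with a mean of at least 10 in either sex. Read numbers of low male genes were recovered with a tolerance of 1e-06 on the sum over 6 libraries, for up to 12 reads, and each of the 6508 genes with a sum under 5 gave exactly 1 solution. The depth of the female libraries is unknown, since their table holds no such genes. Exon lengths, coding sequences and positions came from GENCODE M39 on GRCm39. Words of 31 bases were searched on both strands of the chromosomes, without unplaced scaffolds. Coding sequences of canonical transcripts were aligned globally, and the annotated Sult2a2 model is short. Scripts were tested on simulated data. Python 3.11.15, numpy 2.4.6, scipy 1.17.1, numba 0.67.0, Biopython 1.88 and matplotlib 3.10.9 were used.

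Named genes were the 9 members and, of each list, the 3 of highest mean and those past 2-fold, with Esr1, the single cell type markers and the genes of the check on sex added after their values were seen. Some results of these lists are not reported here. The members and lists were chosen with earlier results of these data known. The sequence windows, the sums over copies, the recovery of male reads and the identity of coding sequences, in place of proteins, were chosen after seeing the data. A search for 3 motifs in the promoters was tried and is not reported, since several annotated starts were doubtful. Alternatives were other scalings, folds of 1.5 and 3, a pseudocount of 1, other minima, the longest transcript as length, words of 75 bases and genes not listed for females added at the lowest female mean.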

Additional observations from a re-analysis of the deposited data

How the results depend on the processing

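The number of members past the fold was 6 in place of 2 higher in females with a fold of 1.5, a set of which 1 gene, Sult1d1, lies at the limit, and it stayed at 2 with a fold of 3. With other scalings or a pseudocount of 1 it was 2 throughout, and 0 members were higher in males under any of these settings. With the longest annotated transcript as length, the scaled level per kb summed over the 9 members was 586 in place of 322 in males and 702 in place of 453 in females, with Sult2a8, Sult1a1 and Sult5a1 each raised by over 1.5 times, while the order of the members did not change in either sex. The pseudocount lowered the log2 ratio of Sult2a1 from 10.78 to 9.84 and that of Sult3a1 from 12.36 to 10.91, as adding 1 to means near 1 must. A minimum mean of 100 lowered the share of all genes at least 2-fold higher in females from 3.59% to 1.99%. A value with no spread was taken as moved when it changed by over 1.5 times. No paired analysis was possible because the tables give 1 mean per sex and no value for a single mouse, and for the same reason no replicate could be left out. Identity between proteins was not run. The ratio between the sexes rests on 1 pooled mean each, so its error is unknown, and differences such as those of Sult1b1 or Sult5a1 cannot be judged.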
